A study of Drosophila melanogaster with 6 samples.

Results

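The genes described here are the 10 nuclear genes of *Drosophila melanogaster* that encode the core subunits of mitochondrial ATP synthase, or complex V: *blw*, *ATPsynbeta*, *ATPsyngamma*, *ATPsyndelta*, *sun*, *ATPsynO*, *ATPsynB*, *ATPsynD*, *ATPsynCF6* and *ATPsynC*. They were picked by symbol and are 10 of the 17494 genes counted. The study sequenced polyadenylated RNA from the dorsolongitudinal indirect flight muscles of pupae aged 64 h after puparium formation (APF), in 3 WT libraries and 3 M1BP RNAi libraries. Pupae of both groups carried *Mef2-GAL4*, which drives transgenes in muscle from the myoblast onwards and, per the study, also in a subset of neurons. WT pupae carried the driver without a hairpin, and M1BP RNAi pupae carried UAS-M1BP RNAi as well, from 1 transgenic line. Each library pooled the hand-dissected muscles of several pupae, and the p-values below measure the spread between such pools. M1BP, for Motif-1 binding protein, is a zinc finger transcription factor, and the comparison asks how the subunit transcripts stood in muscle when it was depleted.

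ATP synthase is a rotary enzyme of the inner mitochondrial membrane that makes ATP from ADP and phosphate as protons flow back into the matrix. A ring of c subunits turns in the membrane with the central stalk, the stalk drives the catalytic head of alternating alpha and beta subunits, and the peripheral stalk holds the head still. Flight muscle is among the most oxidative tissues known, and rows of ATP synthase dimers also shape the folds (cristae) of its mitochondria.

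In the dm6 build the 10 genes lie on 5 chromosomes or arms, and each is annotated as protein coding with the same span in the count table and in the reference annotation. *blw* (FBgn0011211) lies at chr2R:22799099-22802180 on the plus strand and *ATPsynbeta* (FBgn0010217) at chr4:1031484-1034917 on the plus strand. The central stalk genes are *ATPsyngamma* (FBgn0020235, chr3R:29747704-29749163, minus strand), *ATPsyndelta* (FBgn0028342, chrX:10212970-10217393, plus strand) and *sun* (FBgn0014391, chrX:15847859-15849258, minus strand). The peripheral stalk genes are *ATPsynO* (FBgn0016691, chr3R:15265591-15266690, plus strand), *ATPsynB* (FBgn0019644, chr3L:9729999-9731224, plus strand), *ATPsynD* (FBgn0016120, chr3R:19095000-19096271, plus strand) and *ATPsynCF6* (FBgn0016119, chr3R:23355220-23356064, minus strand). *ATPsynC* (FBgn0039830) lies at chr3R:31216145-31219630 on the minus strand.

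Motif 1 is the promoter sequence that M1BP binds, and its letters are shown because they differ among the subunit genes. The study's supplementary motif scan of the promoters of respiratory chain genes lists a match for 7 of the 10 members, each in a window of 301 bases that holds the gene's dm6 start site. Of all 124 windows scanned, 79 have a listed match, a like share. The 18 letters of the match are printed as listed, with capitals marking letters 6 to 14, the core. The window is named in place of the match's own position, which was not looked up in a genome here.

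The matches of 6 members, in the order of likeness of their core to GGTCACACT, were:
ATPsynC, chr3R:31219579-31219880: gttatGGTCACACTgcgc
ATPsynD, chr3R:19094749-19095050: gggtcGGTCACACTatca
ATPsyndelta, chrX:10212719-10213020: cggctGGTCACTCTgact
sun, chrX:15849207-15849508: tagttGGCCACACTgacc
ATPsynO, chr3R:15265340-15265641: gccctGGTCACAGCtgag
ATPsynB, chr3L:9729748-9730049: gatctGGCAACGCTctct

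The core GGTCACACT, read in the direction the scan lists it (the scan's own choice of strand), stood whole in the matches of *ATPsynC* and *ATPsynD*. Over all 124 scanned windows, 21 listed matches (16.9%) held it. Against it, *ATPsyndelta* and *sun* differed in 1 letter, *blw* and *ATPsynO* in 2 and *ATPsynB* in 3. No match was listed for *ATPsynbeta*, *ATPsyngamma* or *ATPsynCF6*. A match is a description of letters and not a measured binding site.

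The 6 libraries held 42215400 to 54890681 counts. The labels were checked on the targeted gene. The WT libraries held 396, 203 and 351 reads of *M1BP* and the M1BP RNAi libraries 166, 178 and 134, or 8.00 ± 0.946 and 3.07 ± 0.470 CPM (mean ± SD, n = 3), that is, counts per 1000000 of a library size scaled by the trimmed mean of M values (TMM). The groups did not overlap, and *M1BP* fell by 1.38 ± 0.15 on the log2 scale (SE, edgeR quasi-likelihood test, adjusted p = 9.5e-04), a call at 0.001 that was lost in all 6 fits that left out 1 library. Counts on the mitochondrial genome made up 26.2, 44.2 and 26.3% of the WT libraries and 15.1, 23.4 and 19.7% of the M1BP RNAi libraries. *roX1*, a non-coding RNA that males make for dosage compensation of the X chromosome, had 0.0414, 0.206 and 22.3 CPM in WT and 30.7, 30.2 and 63.1 in M1BP RNAi, so WT libraries 1 and 2 nearly lacked it. WT library 3 also stood apart on the second principal component, which held 24.5% of the variance. All 8 flight muscle markers were detected, with a summed level of 141838 to 158551 CPM in WT and 103670 to 107607 in M1BP RNAi. Against that, the summed levels of 7 other cell types (fat body, haemocytes, neurons, trachea, tendon, epidermis and myoblasts) were 6.09 to 307 CPM, and no marker of them was at 0 in every library. In WT the epidermis sum ran from 38.5 to 180 CPM and the fat body sum from 88.4 to 304, against 53.5 to 82.2 and 164 to 288 in M1BP RNAi. The epidermis marker *dy* had 8.83, 13.1 and 101 CPM in WT libraries 1, 2 and 3. Of 6 haemocyte markers 5 were tested, and 2 were higher in M1BP RNAi at an adjusted p of 0.05 (edgeR), as were 13.8% of all genes. The haemocyte sums were 22.2 to 26.5 CPM in WT and 34.4 to 46.9 in M1BP RNAi.

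Of the 10 subunit transcripts, 9 were lower in M1BP RNAi muscle than in WT muscle once the libraries were scaled so that the typical gene stood level, and *sun* did not pass the test. The differences were small. The log2 fold changes ran from -0.50 to -0.17 with a median of -0.31, where 51.4% of all genes had values below 0 and the median of the 8806 genes tested was -0.02. No member was called at the study's threshold, an adjusted p of 0.001 or less with a change of at least 1.5-fold, by edgeR or by DESeq2, and none reached 1.5-fold. At that threshold edgeR called 254 of all genes lower (2.88%) and 194 higher (2.2%), 5.09% together. At an adjusted p of 0.05 or less with no fold minimum, 9 of the 10 members were called lower by edgeR, against 16.9% of all genes, and the same 9 had an unadjusted p under 0.05. For each of these 9 every M1BP RNAi library had a lower CPM than every WT library, which held for 25.0% of all genes. Among the 123 nuclear genes whose average CPM was at least that of the lowest member (the members included), the median log2 fold change was -0.33, with 79 called lower at an adjusted p of 0.05. Of these 123 genes, 116 had values below 0 and 92 had groups apart in the lower direction, so the members moved like other abundant transcripts. In RNA from whole dissected muscle, fewer muscle cells and less RNA per cell cannot be told apart. The summed flight muscle markers were lower in every M1BP RNAi library too, with 6 of the 8 called lower at an adjusted p of 0.05 (edgeR), and their part in the subunit result was not tested.

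**Figure D1:**
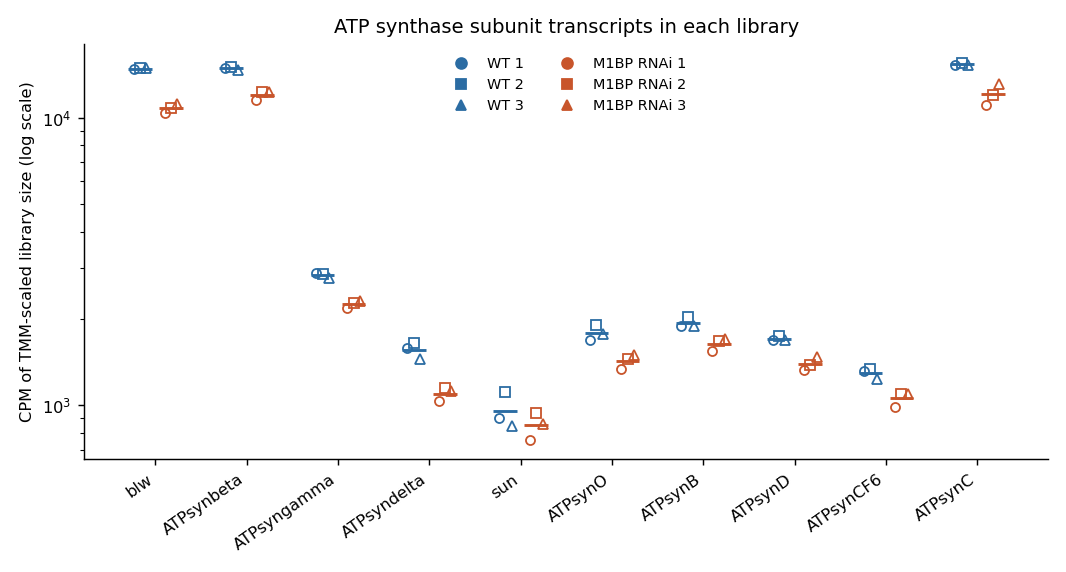
Level of each subunit transcript in each of the 6 libraries, as CPM on the TMM-scaled library size, on a log axis. Open symbols are libraries (circle, square and triangle for replicates 1, 2 and 3), and short lines are the means of 3 WT libraries (blue) and 3 M1BP RNAi libraries (orange). Only for *sun* do the groups overlap.

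The 2 subunits of the catalytic head were among the 3 highest members per exon length, and both were lower in every M1BP RNAi library. *blw* (bellwether) encodes alpha, which binds nucleotide without turning it over. It had 14747, 14843 and 14810.0 CPM in the WT libraries and 10379, 10785 and 11141 in the M1BP RNAi libraries. The highest M1BP RNAi library was thus far below the lowest WT library, and the mean fell by 27.2% (log2 fold change -0.46 ± 0.06 SE, edgeR, adjusted p = 0.0026). *ATPsynbeta* encodes beta, which carries the catalytic sites. Its levels were 14845, 14995 and 14672 CPM in WT and 11483, 12224.5 and 12303 in M1BP RNAi, a fall of the mean by 19.1% with groups apart (log2 fold change -0.31 ± 0.06 SE, edgeR, adjusted p = 0.013). Exons of *ATPsynbeta* and of CG11076, on the opposite strand, share 191 bases, and CG11076 rose, with a log2 fold change of 0.77 ± 0.09 (SE, edgeR, adjusted p = 0.0011).

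The 3 genes of the central stalk, which couples the turning ring to the catalytic head, held both the largest and the smallest difference. *ATPsyndelta* had 1576.5, 1641 and 1450.2 CPM in WT and 1033, 1144 and 1115 in M1BP RNAi. It showed the lowest log2 fold change of the 10 members, -0.50 ± 0.08 (SE, edgeR, adjusted p = 0.0036), with groups apart. *ATPsyngamma*, the rotating shaft, stood at 2889, 2866 and 2778 CPM in WT and at 2178, 2268 and 2295 in M1BP RNAi. These groups were also apart, and the change was -0.34 ± 0.06 on the log2 scale (SE, edgeR, adjusted p = 0.0065). *sun* (stunted) encodes epsilon, and its product is also known in the fly as a ligand of the receptor Methuselah. Its WT levels were 905, 1109 and 849 CPM, and its M1BP RNAi levels 753, 938 and 860.3 CPM. The groups overlapped, since 2 M1BP RNAi libraries stood above the lowest WT library, and its log2 fold change of -0.17 ± 0.13 (SE) did not pass the test (edgeR, adjusted p = 0.38). *ATPsyndelta* and *sun* are the 2 X-linked members.

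The 4 peripheral stalk genes moved within a narrow range. *ATPsynO* encodes the oligomycin sensitivity conferring protein, the cap that ties the stalk to the head. Its levels were 1683, 1893 and 1764 CPM in WT and 1333, 1449 and 1499.5 in M1BP RNAi (log2 fold change -0.32 ± 0.08 SE, edgeR, adjusted p = 0.022). *ATPsynB*, the long helical b subunit, had 1886, 2029.8 and 1877 CPM in WT and 1540.0, 1666 and 1697 in M1BP RNAi. It was the called member with the smallest change, -0.24 ± 0.07 (SE, edgeR, adjusted p = 0.040). *ATPsynD*, subunit d, had 1684, 1735 and 1686 CPM against 1329, 1379 and 1466, and *ATPsynCF6*, coupling factor 6, had 1315, 1331 and 1228 against 981, 1090.0 and 1095. Both changed by -0.29 on the log2 scale (SE 0.06 and 0.07, edgeR, adjusted p = 0.015 and 0.024), and for all 4 genes every M1BP RNAi library was below every WT library.

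*ATPsynC* encodes subunit c, whose copies form the membrane ring through which protons pass, and it was the highest member per exon length. It had 15200.3, 15490.0 and 15269 CPM in WT. In M1BP RNAi it had 11039, 11985 and 13068 CPM, a wider relative spread than that of *blw* or *ATPsynbeta* over these 3 libraries, and its log2 fold change was -0.35 ± 0.08 (SE, edgeR, adjusted p = 0.018). All 3 of its M1BP RNAi values lay below its WT values.

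The other structural genes of complex V in the study's list had lower values too. *ATPsynE* (subunit e), *ATPsynF* (subunit f), *ATPsynG* (subunit g) and *Neb-cGP* are small membrane or accessory subunits, and none of the 4 was called at the study's threshold. At an adjusted p of 0.05, 3 of the 4 were called lower by edgeR, against 16.9% of all genes. These were *ATPsynE* at -0.30, *ATPsynG* at -0.37 and *Neb-cGP* at -0.34 on the log2 scale (SE 0.07, 0.07 and 0.10). *ATPsynF* had -0.18 ± 0.09 (SE, edgeR, adjusted p = 0.18). The remaining subunits are encoded by the mitochondrial genome. *ATP6* (subunit a, the proton channel beside the ring) had 8896, 17630.3 and 8522 CPM in WT against 3229, 9245 and 7179 CPM in M1BP RNAi. Its groups overlapped, and its log2 fold change was -0.83 ± 0.44 (SE, edgeR, adjusted p = 0.20). *ATP8* had 21.1, 44.2 and 15.6 CPM against 14.2, 34.7 and 28.1, also with overlap. Both transcripts were highest in WT library 2, the library with the largest mitochondrial share.

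**Figure D2:**
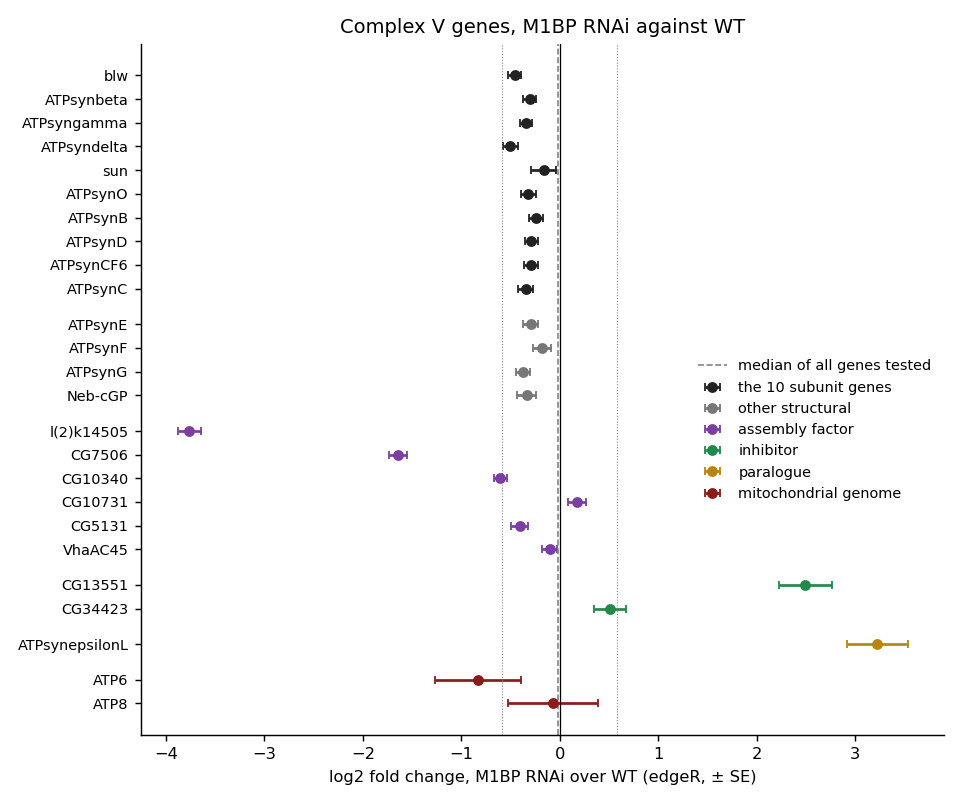
log2 fold change of each complex V gene that was tested, M1BP RNAi over WT, with bars of 1 SE from edgeR over 3 libraries a group. The dashed line is the median of all genes tested, the dotted lines mark 1.5-fold, and the 10 subunit genes stand together left of 0 while assembly factors and inhibitor homologues reach from -3.76 to 2.49.

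The direction of these differences is relative to the typical gene. The share of counts on the mitochondrial genome was lower in every M1BP RNAi library than in every WT library, and the TMM factors were 0.881, 0.677 and 0.918 in WT and 1.31, 1.16 and 1.21 in M1BP RNAi. As a share of all counts, with no scaling factor, every member was higher in M1BP RNAi (0.07 to 0.42 on the log2 scale), while the median gene was higher by 0.55. As a share of the counts on nuclear genes, the members ran from -0.19 to 0.15 with a median of 0.01, and the median gene stood at 0.30. In those nuclear shares 3 members had groups apart in the lower direction, *blw*, *ATPsyngamma* and *ATPsyndelta*, where 9.12% of nuclear genes did. Only *blw* passed an adjusted p of 0.05 in that fit (-0.14, edgeR, adjusted p = 0.042), and *ATPsyngamma* changed by only -0.02 (edgeR, adjusted p = 0.72). The 10 genes together took 6.77, 7.03 and 7.02% of nuclear gene counts in the WT libraries and 6.48, 6.79 and 6.98% in the M1BP RNAi libraries. Under TMM the members' median stood at -0.30 relative to that of all genes, a distance that a change of scaling cannot alter, since it moves every gene by about the same amount.

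**Figure D3:**
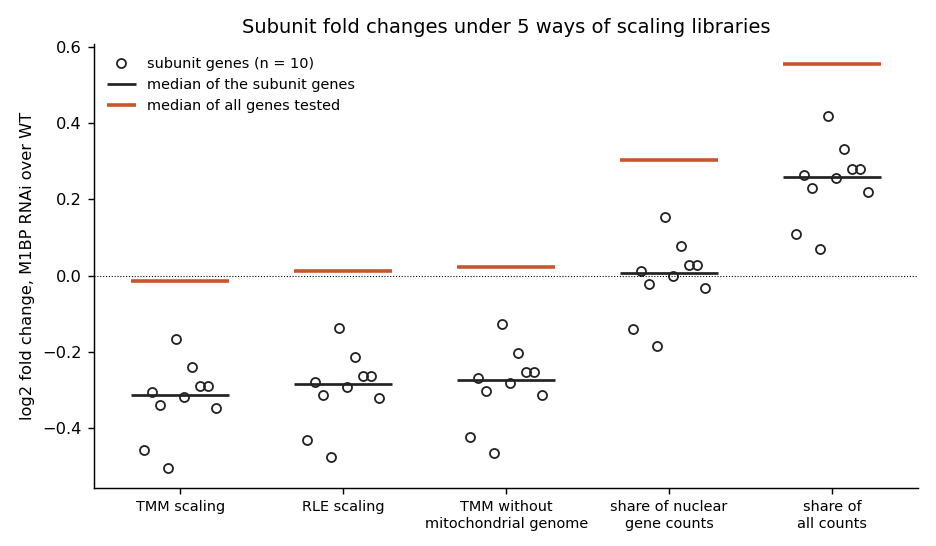
log2 fold change of the 10 subunit genes (open circles, black line their median) and the median of all genes tested (orange line) under 5 ways of making the libraries comparable. The subunits cross 0 between the settings, from a median of -0.31 to 0.26, while their distance to the median gene, -0.30 under TMM, is the same by construction.

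Most calls at an adjusted p of 0.05 were lost in the fits that set aside the difference in *roX1*, which also have fewer residual degrees of freedom. With *roX1* as a covariate only *blw* stayed past that threshold (-0.47 on the log2 scale, edgeR, adjusted p = 0.041), and *sun* moved to 0.02. Without WT libraries 1 and 2 a single WT library is left, which is assumed to vary like the M1BP RNAi libraries, and in that fit *blw* had an adjusted p of 0.036 and *ATPsyndelta* of 0.041 (edgeR). The median change of the members hardly moved, at -0.30 with the covariate and -0.31 without the libraries. Leaving out single libraries gave 3 calls without M1BP RNAi library 2, 5 without WT library 1 and 6 to 8 otherwise, with all 10 log2 fold changes below 0 in each of these fits. *blw*, *ATPsyngamma* and *ATPsyndelta* kept their calls in all 6 such fits. The part of *roX1* in these results was not tested further.

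Ratios between subunits within a library need no scaling, and they shifted a little. Counts of each subunit were divided by those of *blw* in the same library. For 7 of the other 9 members the ratio was higher in every M1BP RNAi library than in every WT library, where 56.2% of genes tested showed the same, so a higher ratio to *blw* was common to most of the transcriptome. *ATPsynbeta* against *blw* went from a mean log2 ratio of 0.00 ± 0.02 to 0.16 ± 0.02 (SD, n = 3). *ATPsynB* shifted most among the 7, by 0.22, and *ATPsynC* least, by 0.11. *ATPsyndelta* moved by -0.04 and *sun* by 0.30, each with groups that overlapped. No member's ratio was lower in every M1BP RNAi library.

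**Figure D4:**
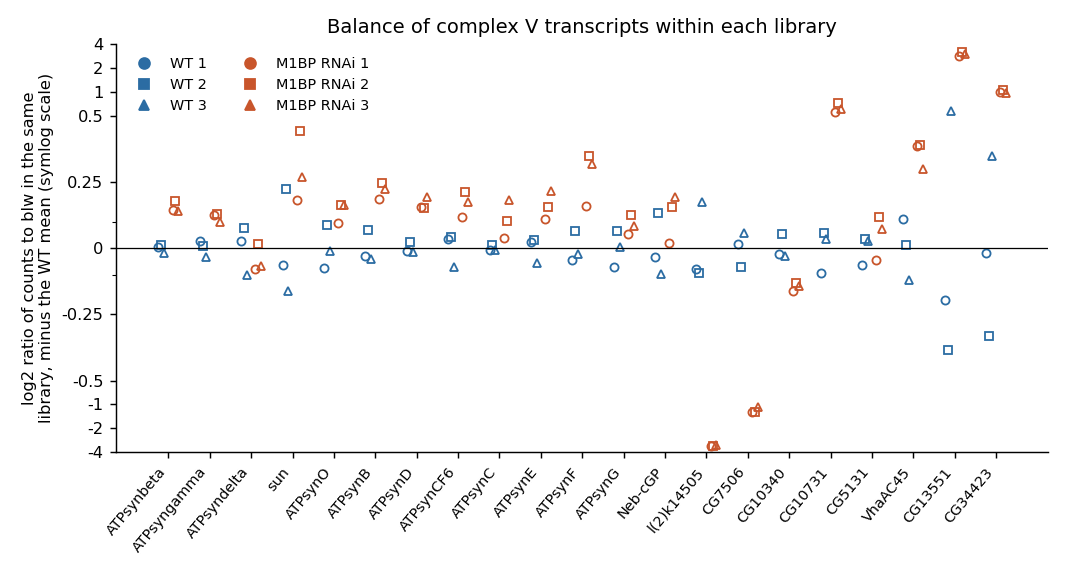
log2 ratio of the counts of each nuclear subunit, assembly factor and inhibitor homologue to those of *blw* in the same library, minus the mean of the 3 WT libraries, on an axis that is linear between -0.5 and 0.5 and logarithmic beyond. Symbols are single libraries, WT in blue and M1BP RNAi in orange. The nuclear subunits stay within 0.5 of their WT mean, whereas l(2)k14505, CG7506 and CG13551 leave it by more than 1 and CG34423 by about 1.

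Levels of different genes were compared per kilobase of summed exon length (RPKM on the TMM scale). In WT the order was *ATPsynC* at 7737 ± 76.5 RPKM (mean ± SD, n = 3), *blw* at 6572 ± 21.7 and *ATPsynbeta* at 6218 ± 67.7, each above the next in all 3 libraries. A second tier followed, with *ATPsynO* (2219 ± 132), *sun* (2120.1 ± 304), *ATPsynB* (2104 ± 93.3), *ATPsyngamma* (1948 ± 40.4), *ATPsynCF6* (1834 ± 79.0) and *ATPsynD* (1791 ± 30.5). Within this tier the neighbours *ATPsynO* and *sun*, *sun* and *ATPsynB*, and *ATPsynCF6* and *ATPsynD* had overlapping ranges. *ATPsyndelta* stood lowest at 408 ± 25.4 RPKM, over a summed exon length of 3817 bases from 3 annotated transcripts. The part of this length in its low level was not tested. The mean ratio of *ATPsynC* to *ATPsyndelta* was 19.0. Among 8772 nuclear genes ranked per length in WT, *ATPsynC* was at rank 3, *blw* at 5 and *ATPsynbeta* at 7.

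In M1BP RNAi the same tiers remained, at lower values. *ATPsynC* had 6076 ± 513 RPKM (SD, n = 3). *ATPsynbeta* (5031 ± 190, SD) stood above *blw* (4782 ± 169, SD) in all 3 M1BP RNAi libraries, the reverse of their order in all 3 WT libraries. *ATPsynbeta* was at 93.5 to 95.3% of the *blw* level per length in WT and at 104 to 107% in M1BP RNAi. *ATPsyndelta* had 287 ± 15.1 RPKM (SD).

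**Figure D5:**
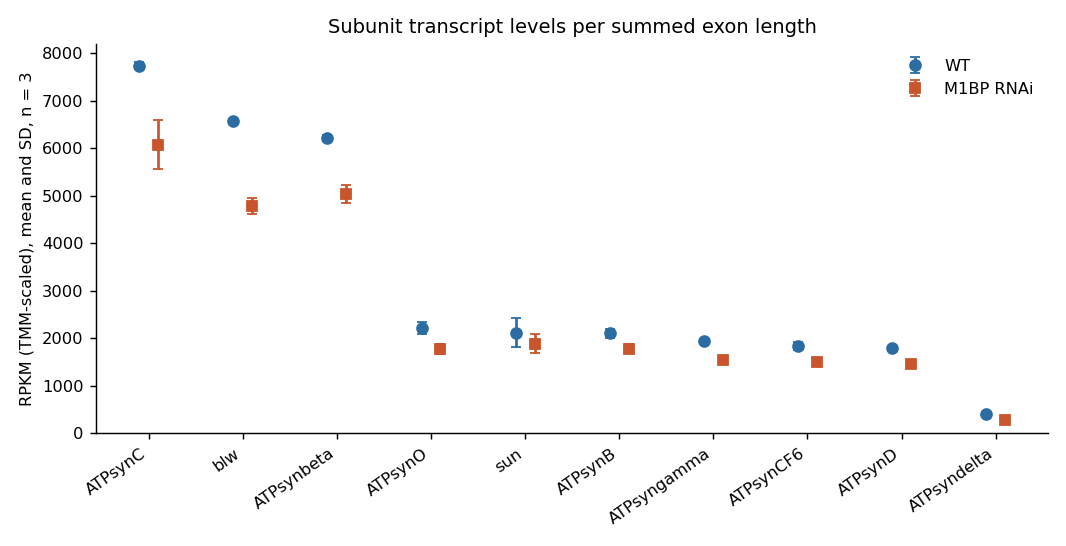
Transcript level of each subunit gene per summed exon length (RPKM on the TMM scale), as the mean and SD of 3 WT (circles) and 3 M1BP RNAi (squares) libraries, in the WT order. Alpha, beta and c form an upper tier, and *ATPsynbeta* stands above *blw* in the M1BP RNAi libraries (5031 against 4782 RPKM).

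Over the 6 libraries the members kept step with each other. The 45 pairwise Pearson correlations of log2 CPM ran from 0.52 to 0.995 with a median of 0.96, over libraries that share the split into groups and the scaling. *sun* had the lowest correlation with the mean of the other members, 0.64. By the same measure, the nuclear genes of an average log2 CPM of at least 5 most like the members' mean were *RpL14* (a protein of the large cytosolic ribosomal subunit, 0.999), *ND-B17* (a subunit of complex I, 0.998), CG34200 (also named Tom6, 0.998), and *tal-AA* and *tal-2A* (0.997 each), 2 small reading frames that share a transcript and had the same counts in every library. *RpL14* changed by -0.50 ± 0.09 and *ND-B17* by -0.42 ± 0.07 on the log2 scale (SE, edgeR). They were picked by likeness over these same libraries, so these changes largely follow from the choice and no test result is given. The structural genes of the other respiratory complexes in the study's list had medians of -0.33 (complex I, 23 of 36 called lower at an adjusted p of 0.05 by edgeR), -0.24 (complex II, 2 of 4), -0.27 (complex III, 6 of 9) and -0.29 (complex IV, 6 of 10), beside 12 of 14 for complex V. At that threshold edgeR called 16.9% of all genes lower, and 79 of the 123 nuclear genes at least as abundant as the lowest member.

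The study's list of complex V assembly factors held larger changes than the subunits, mainly in l(2)k14505 and CG7506. Of 6 assembly factors in the study's list, 3 were called lower at the study's threshold and none higher by edgeR, where 2.88% of all genes were called lower and 2.2% higher. DESeq2 called 2 of the factors lower and gave CG10340 a change just under 1.5-fold (-0.58 on the log2 scale). At an adjusted p of 0.05, 4 were lower by edgeR, against 16.9% of all genes. l(2)k14505 (FBgn0021856) had 66.4, 66.2 and 79.6 CPM in WT against 5.00, 4.93 and 5.70 CPM in M1BP RNAi. The 2 groups were far apart, and it fell by 3.76 ± 0.12 on the log2 scale (SE, edgeR, adjusted p = 1.1e-05), a call it kept in all 6 fits that left out 1 library.

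CG7506 (FBgn0035805), also named dTMEM70 for the human protein TMEM70, which helps build the c ring into the enzyme, followed. It had 84.2, 79.8 and 87.2 CPM in WT and 24.6, 26.0 and 29.6 CPM in the M1BP RNAi libraries, with groups apart and a change of -1.65 ± 0.09 on the log2 scale (SE, edgeR, adjusted p = 7.1e-05). CG10340 had 209, 222 and 208 CPM against 133, 142 and 145.0, and changed by -0.61 ± 0.07 (SE, edgeR, adjusted p = 9.6e-04). Its call was lost in all 6 fits that left out 1 library, and that of CG7506 in 2 of the 6, without WT library 1 and without M1BP RNAi library 2. CG5131 had -0.41 ± 0.08 (SE, edgeR, adjusted p = 0.012), VhaAC45 -0.10 ± 0.08 (adjusted p = 0.37) and CG10731 0.18 ± 0.09 (adjusted p = 0.19).

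The Motif 1 letters listed for these factors are shown for comparison with the subunits, again with the core in capitals and the window of the start site. VhaAC45, which was not called, also has a listed match, with 2 letters different in the core, and its letters are not printed. The printed matches were:
l(2)k14505, chr2L:21260917-21261218: actacAGCCACACTgaaa
CG7506, chr3L:7641597-7641898: gtgtgGGCCACACTgcaa
CG5131, chr2L:17484250-17484551: agcgtTGCCACACTgccg

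The core of CG7506 differed from GGTCACACT in 1 letter, those of l(2)k14505 and CG5131 in 2. *ATPsynC* and *ATPsynD*, with the whole core, had log2 fold changes of -0.35 and -0.29, and l(2)k14505 had -3.76. CG7506 and *sun* had the same 9 core letters and log2 fold changes of -1.65 and -0.17. These genes are examples, and a link between the letters and the fold changes was not tested.

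In contrast to the subunits, both homologues of an inhibitor of the enzyme had higher values in every M1BP RNAi library. Groups apart in that direction were seen for 21.5% of all genes. The ATPase inhibitory factor, IF1, binds the catalytic head and blocks ATP hydrolysis when the membrane loses its proton gradient. CG13551 (FBgn0040660), the fly gene also named ATPIF1, had 29.9, 26.4 and 51.3 CPM in WT and 168, 229 and 209 in M1BP RNAi. Every M1BP RNAi library was above every WT library, and the log2 fold change was 2.49 ± 0.27 (SE, edgeR, adjusted p = 9.6e-04). The highest WT value was that of library 3, the WT library with *roX1*. With *roX1* as a covariate the change was 1.87 (edgeR, adjusted p = 0.0023), past a threshold of 0.05 but not of 0.001. Against WT library 3 alone, assumed to vary like the M1BP RNAi libraries, it was 1.97 (edgeR, adjusted p = 0.0050). The call at the study's threshold was also lost in 5 of the 6 fits that left out 1 library and held without WT library 3 (2.89, edgeR, adjusted p = 8.9e-05).

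CG34423, the second homologue of the inhibitor, had 231, 187 and 299.7 CPM in WT against 325, 352 and 346 CPM in M1BP RNAi. The groups were apart, and its log2 fold change of 0.51 ± 0.16 (SE) missed an adjusted p of 0.05 (edgeR, adjusted p = 0.055). DESeq2 gave an adjusted p of 0.016, and without WT library 3 the change was 0.75 (edgeR, adjusted p = 0.0035). With *roX1* as a covariate it was 0.14 (edgeR, adjusted p = 0.55). Measured against *blw* within the library, CG13551 was higher by 3.00 and CG34423 by 1.00 on the log2 scale, and l(2)k14505 and CG7506 had -3.30 and -1.19, with groups apart in each case. In that ratio 56.2% of genes were higher with groups apart and 5.76% were lower.

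Of the genes whose symbols mark them as paralogues of the subunits, *ATPsynepsilonL* passed the filter on low counts. Its WT counts were 4, 3 and 3, and its M1BP RNAi counts 49, 37 and 43. On the scaled library sizes the ratio of the summed counts was 9.68. The fitted log2 fold change of *ATPsynepsilonL* was 3.22 ± 0.31 (SE, edgeR). The gene passed the filter through its M1BP RNAi counts alone, so no test result is given for it. The ratio and the SE describe these counts and are not to be read as a test. *ATPsynbetaL*, *ATPsynGL* and *ATPsynCF6L* were at or below the 3 counts set as the floor in every library and were not tested.

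Some members start close to a gene read the other way. *ATPsynD* starts 95 bases from *mRpL55*, a gene of the mitochondrial ribosome, which had -0.74 ± 0.09 (SE, edgeR, adjusted p = 0.0016). *ATPsynCF6* starts 214 bases from *Sec13*, a coat protein of secretory vesicles and the nuclear pore, which had -0.91 ± 0.14 (SE, edgeR, adjusted p = 0.0039). *ATPsyngamma* starts 56 bases from *yata*, which had -0.36 ± 0.09 (SE, edgeR, adjusted p = 0.019). *ATPsynbeta* starts 273 bases from CG11076, whose exons overlap its own and which rose, with 0.77 ± 0.09 (SE, edgeR, adjusted p = 0.0011). On the log2 scale the first 2 partners had lower values than their member (-0.29 for both *ATPsynD* and *ATPsynCF6*), and the difference was not tested. At greater distance, CG42260 (810 bases from *blw*) had -1.45, *cdi* (730 bases from *ATPsynD*) -0.54 and CG15309 (596 bases from *ATPsyndelta*) 0.32, each past an adjusted p of 0.05 in edgeR.

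Exons of some members overlap those of a gene on the opposite strand. No member shares exon bases with a gene on its own strand. CG2962 lies opposite *ATPsyndelta* over 1358 exon bases and had 0 counts in 4 libraries, 1 in M1BP RNAi library 1 and 62 in M1BP RNAi library 3. *ATPsyndelta* had over 1000 CPM in each library. How reads on the shared bases were assigned to either gene was not tested. CG14864 shares 7 bases with *ATPsynO* on the opposite strand and had -0.10 ± 0.42 (SE, edgeR, adjusted p = 0.89). CG34423 shares 350 exon bases with an antisense RNA gene on the opposite strand, and CG10340 shares 3 bases with CG12783 on its own strand.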

How the data were processed

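RNA was sequenced from 3 WT and 3 M1BP RNAi flight muscle pools. The authors deposited a table of raw counts per gene (uniquely mapped reads on dm6, with a strand-specific library kit; Subread 2.0.3 and featureCounts are named in the submitters' processing notes) and a table of their own DESeq2 comparison, with log2 fold changes and p-values, used here only to join gene symbols to gene IDs. The aligner's settings were not given in the sources used here. Counts entered edgeR 4.0.16 (R 4.3.3; quasi-likelihood test, TMM scaling, filterByExpr, Benjamini-Hochberg adjustment over 8806 genes), which was tested on simulated data. CPM and RPKM were computed from these counts with TMM-scaled library sizes. Likeness and correlations used log2 CPM with a pseudocount of 0.5. The depth of 42215400 to 54890681 counts makes counting error small for the subunits, and replicates differed by more than sampling noise.

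The genes named are the 10 members, the other complex V genes, assembly factors and inhibitors, paralogues by symbol, neighbours within 1000 bases or with shared exons, and the 5 genes most like the members' mean. Members and lists were chosen with earlier results of these data known. Groups and replicate numbers came from the sample titles. Same-numbered WT and M1BP RNAi libraries deviated together with correlations of 0.307, -0.0436 and 0.268, and unlike-numbered ones with -0.363 to 0.23. These values do not settle whether the numbers pair the libraries, and the main fit did not pair them. Alternatives were DESeq2 1.42.0, RLE or no scaling, other filters and thresholds, the mitochondrial genome left out, a replicate block, *roX1* as a covariate and single libraries left out. The share of nuclear counts and the fit without WT libraries 1 and 2 were added after the data were seen.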

Additional observations from a re-analysis of the deposited data

How the results depend on the processing

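No member was called at the study's threshold under any alternative except the looser rule of an adjusted p of 0.05 and any fold, where 9 were. The count of 9 members lower at an adjusted p of 0.05 became 0 with no scaling factors, 3 with no filter on low counts, 1 with *roX1* as a covariate, 1 as a share of nuclear gene counts, 2 without both WT libraries that lack *roX1*, and 3 to 8 with single libraries left out; it was 8 or 9 otherwise. Among assembly factors and inhibitor homologues, the 3 called lower became 1 with no scaling factors, 1 without the WT libraries that lack *roX1* and 1 to 2 with single libraries left out, and 2 with RLE scaling, DESeq2, the mitochondrial genome left out, no filter on low counts, the replicate block, *roX1* as a covariate and the share of nuclear gene counts, and the 1 called higher became 0 with RLE scaling, without the mitochondrial genome, with the replicate block, with *roX1* as a covariate, without the WT libraries that lack *roX1* and in 5 of the 6 fits that left out 1 library (0 to 1). The replicate block left 8 of the 9 members called at 0.05, and *ATP6* and CG34423 passed 0.05 under it (edgeR, adjusted p = 0.040 and 0.041). Whether the numbers pair the libraries is not known. CG34423 also passed 0.05 with DESeq2, at least 10 counts in every library, the share of nuclear gene counts, no scaling factors and without WT library 3.

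For all genes, 254 lower and 194 higher became 59 and 435 with no scaling factors, 116 and 75 with the replicate block, 127 and 43 with *roX1* as a covariate, 135 and 437 as a share of nuclear gene counts, 37 and 17 without the WT libraries that lack *roX1*, 477 and 572 by DESeq2, 1489 and 1212 under the looser rule, and 44 to 231 lower and 26 to 246 higher with single libraries left out. *M1BP* stayed lower but missed 0.001 with RLE scaling (-1.36), no scaling factors (-0.84), without the mitochondrial genome (-1.35), with the replicate block (-1.39), with *roX1* as a covariate (-1.50), as a share of nuclear gene counts (-1.07), without the WT libraries that lack *roX1* (-1.54) and with single libraries left out (-1.51 to -1.26). The ratio of *ATPsynC* to *ATPsyndelta* per length in WT was 18.4 to 19.4 and the count of 7 members with a higher ratio to *blw* was 7 to 8 with single libraries left out.

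With no scaling factors these log2 fold changes turned positive: *blw* 0.11, *ATPsynbeta* 0.26, *ATPsyngamma* 0.23, *ATPsyndelta* 0.070, *sun* 0.42, *ATPsynO* 0.26, *ATPsynB* 0.33, *ATPsynD* 0.28, *ATPsynCF6* 0.28, *ATPsynC* 0.22, *ATPsynE* 0.27, *ATPsynF* 0.39, *ATPsynG* 0.20, *Neb-cGP* 0.24, CG5131 0.16, VhaAC45 0.47 and *ATP8* 0.56, beside a median gene at 0.55. As a share of nuclear gene counts so did *ATPsynbeta* (0.012), *sun* (0.15), *ATPsynB* (0.077), *ATPsynD* (0.027), *ATPsynCF6* (0.027), *ATPsynE* (0.021), *ATPsynF* (0.14) and VhaAC45 (0.22), beside a median gene at 0.30. With *roX1* as a covariate *sun* was 0.016, VhaAC45 0.045 and *ATP8* 0.77, and without the WT libraries that lack *roX1* VhaAC45 was 0.0087 and *ATP8* 0.71. With single libraries left out *ATP8* ran from -0.35 to 0.50, positive without WT library 2 and without M1BP RNAi library 1 (0.22). The cause of these shifts beyond the scaling itself was not tested.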
